A study of Mus musculus with 6 samples.

Results

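Axon guidance ligands and receptors are the semaphorins and their plexin receptors, the Slits and their Robo receptors, the netrins and their receptors, and the ephrins and their Eph receptors. They were compared here between the cells of mouse marrow that switch on stem cell factor and the unselected marrow. Members were taken by gene name, from the symbols Sema3 to Sema7, Plxn, Slit, Robo, Ntn, Ntng, Unc5, Epha, Ephb, Efna and Efnb, plus Dcc and Neo1, wherever a probe set carried a single gene symbol. This gave 68 of the 19938 genes tested, 36 of them ligands and 32 receptors. The rule reads gene names and no measured value, although these families were picked with earlier results of the same data known.

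RNA of 2 mouse cell populations was hybridised to Affymetrix Mouse Gene ST 1.0 arrays, 3 for each. Scf-GFP+ cells, double-sorted, came from young adult C57BL/6 mice heterozygous for a knock-in that places green fluorescent protein in the stem cell factor gene (Kitl), so they carry an altered Kitl allele. Whole bone marrow cells came from wild type young adult C57BL/6 mice without that allele. Each array held RNA amplified from 5000 sorted cells, and genotype, sorting and cell population changed together, so they cannot be told apart. The aliquots are called independent, but whether each was a separate animal is not stated, and p-values then measure only how far these samples spread, which may be technical.

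Guidance cues were named for steering growing axons, by attraction or repulsion at the growth cone. Semaphorins signal through plexins, the secreted class 3 members mostly together with neuropilins. Slits are secreted and bind Robo receptors. Netrins bind Dcc, neogenin (Neo1) and the Unc5 receptors. Ephrins are membrane-bound and meet Eph receptor tyrosine kinases on touching cells, with signalling possible in both directions. The same families act outside the nervous system, in vessel growth, bone remodelling and immune cells.

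Values are log2 expression from RMA, a summary of each probe set after background correction and normalization, and differences are Scf-GFP+ minus whole marrow, with limma's moderated standard error (SE). Calling a gene took 2 things, an adjusted p below 0.05 (Benjamini-Hochberg, across every gene tested) and at least 2-fold. Levels of different genes are not compared, because probe sets differ in brightness. No background level was used here, so a fold is a ratio of measured signals, and one against a low signal may be understated. For 9 of the 19 genes called higher below, among them Sema6d, Sema5a, Efna5, Slit2 and Slit3, every whole marrow array was under its own median (6.56 to 6.63). The arrays of a population resembled each other closely, with correlations across genes of 0.973 to 0.981 within groups and 0.818 to 0.834 between them. Kitl, the gene the cells were sorted on, was 47.5-fold higher in Scf-GFP+ cells, which checks the labels. All 10 stromal markers, Kitl among them, were called higher there, where 9.01% of all genes tested were. Because the cells were sorted on Kitl, its call follows from the sorting. The mean of the stromal list was 11.46 to 11.53 on the Scf-GFP+ arrays and 6.10 to 6.15 on the whole marrow arrays. Of the neutrophil markers, 10 of 12 were called lower, but Scf-GFP+ replicate 1 had a list mean of 9.26, against 5.97 and 6.06 in Scf-GFP+ replicates 2 and 3 and 11.80 to 11.95 in whole marrow. Xist, which female cells transcribe, was at 11.50 and 11.81 on the arrays of Scf-GFP+ replicates 1 and 2, 5.04 in replicate 3 and 4.99 to 5.10 in whole marrow. The labels give no sex. The spread of the Scf-GFP+ arrays may therefore include a difference of sex, and so may the differences between the groups.

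Scf-GFP+ cells had higher signal for a subset of guidance genes from nearly every family. Of the 68 genes, 19 were called higher in Scf-GFP+ cells, which is 27.9%, where 9.01% of all genes tested were. Sema4a and Sema4d were called lower, 2.94% of the genes, where 7.89% of all genes tested were, and the other 47 were not called. The genes called higher were 10 ligands and 9 receptors: Sema4c, Sema5a, Sema6d, Sema7a, Slit2, Slit3, Efna1, Efna5, Efnb1 and Efnb2, and Plxna1, Plxna2, Plxnb1, Plxnb2, Plxnd1, Robo1, Neo1, Unc5c and Ephb4. Of them, 6 were at least 8-fold higher, while 1.87% of all genes tested were called higher by that much. The median difference was 0.09 over the 68 genes and -0.08 over all genes tested, so most guidance genes lay near 0 and a minority far above it. All Scf-GFP+ arrays lay above all whole marrow arrays for 26 of the 68 genes (38.2%; 19.0% of all genes tested), and below them for 12 (17.6%; 26.4% of all genes tested). Of the 47 genes not called, 42 had a 95% interval of the difference inside 2-fold in either direction, and 24 lay below the median of the array on all 6 arrays. In bulk RNA, fewer cells of a type and less RNA per cell cannot be told apart.

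**Figure D1:**
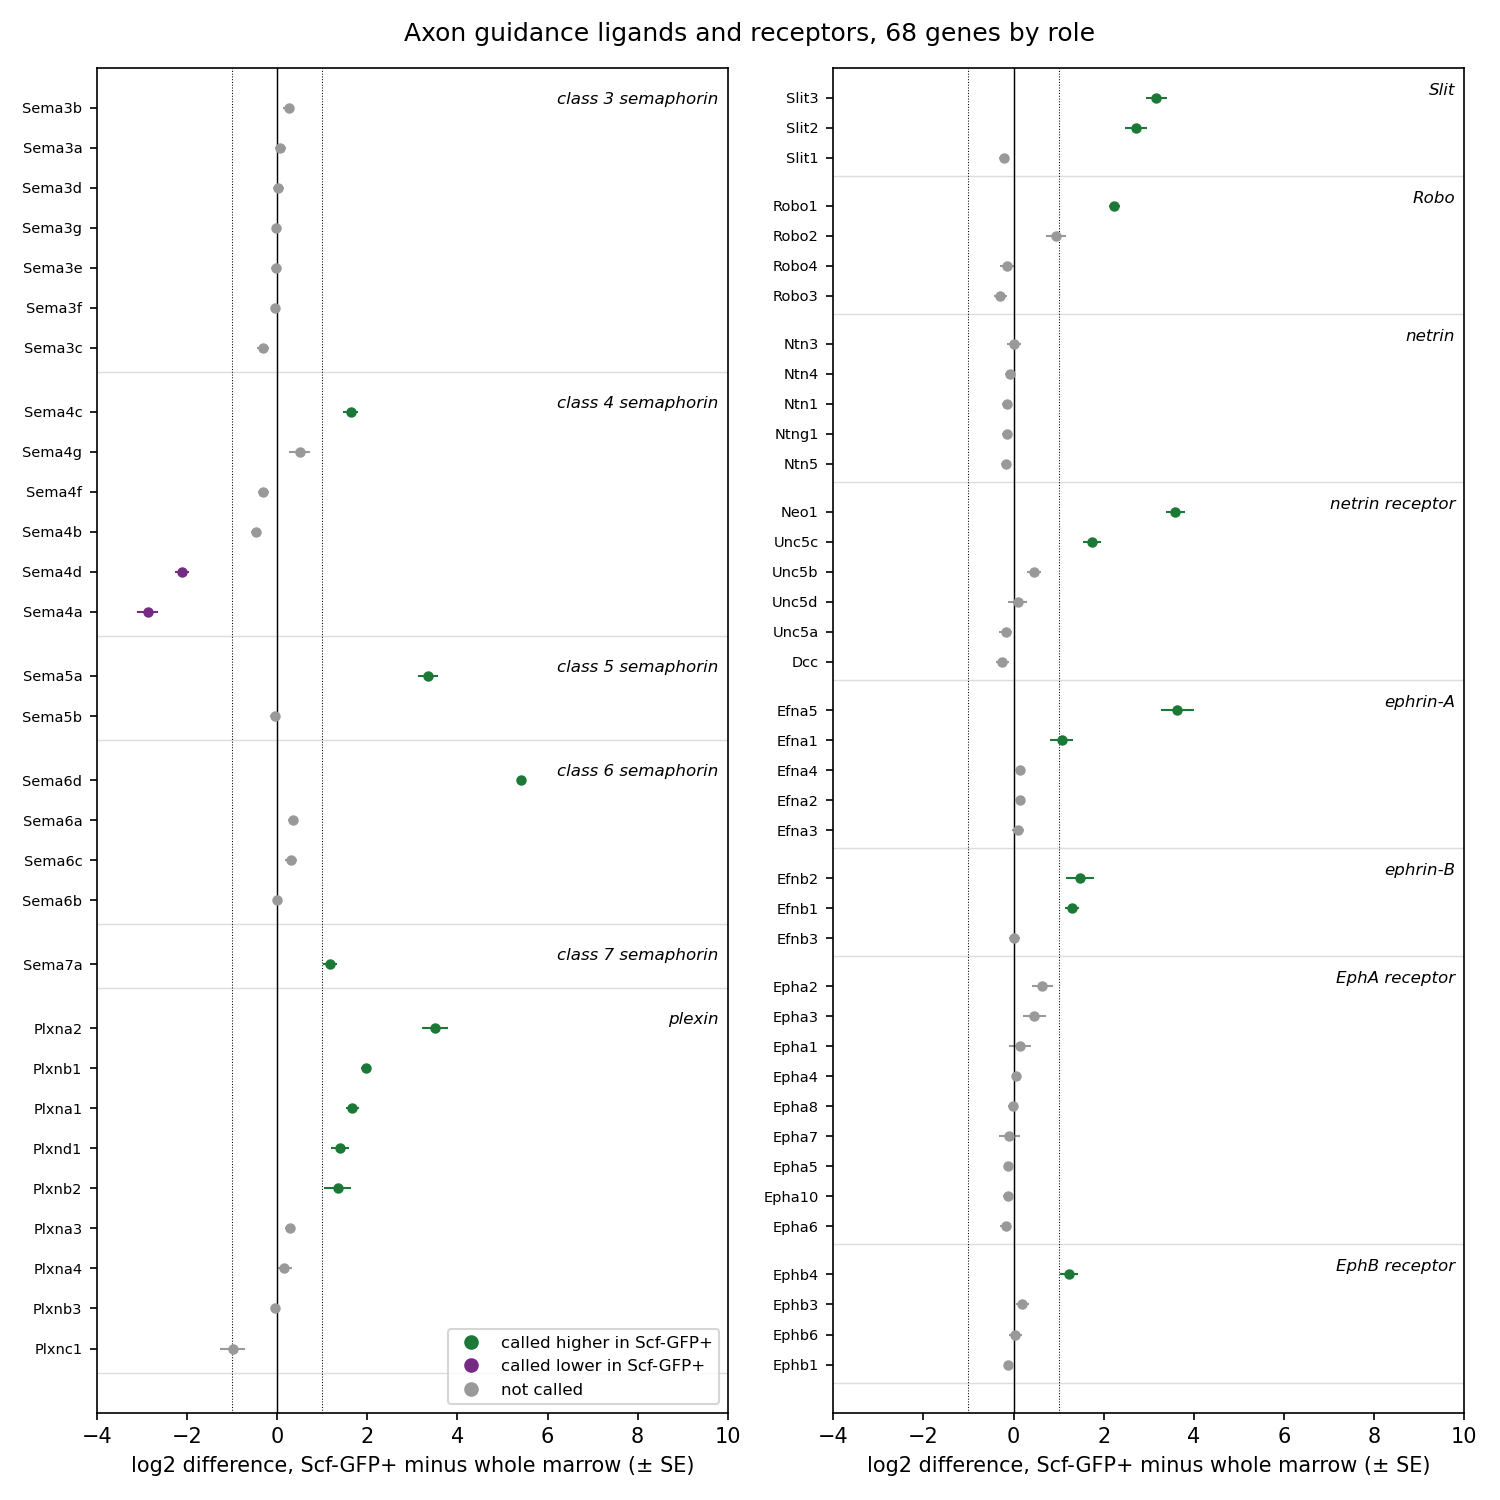
Log2 difference (Scf-GFP+ minus whole marrow, ± SE, 3 arrays per group) of the 68 genes, grouped by role. Dotted lines mark 2-fold. Each of the groups of class 5 and 6 semaphorins, plexins, Slits, Robos, netrin receptors, ephrins and EphB receptors holds at least 1 gene right of the dotted lines beside genes near 0, while class 3 semaphorins, netrins and EphA receptors all lie inside the dotted lines.

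**Figure D2:**
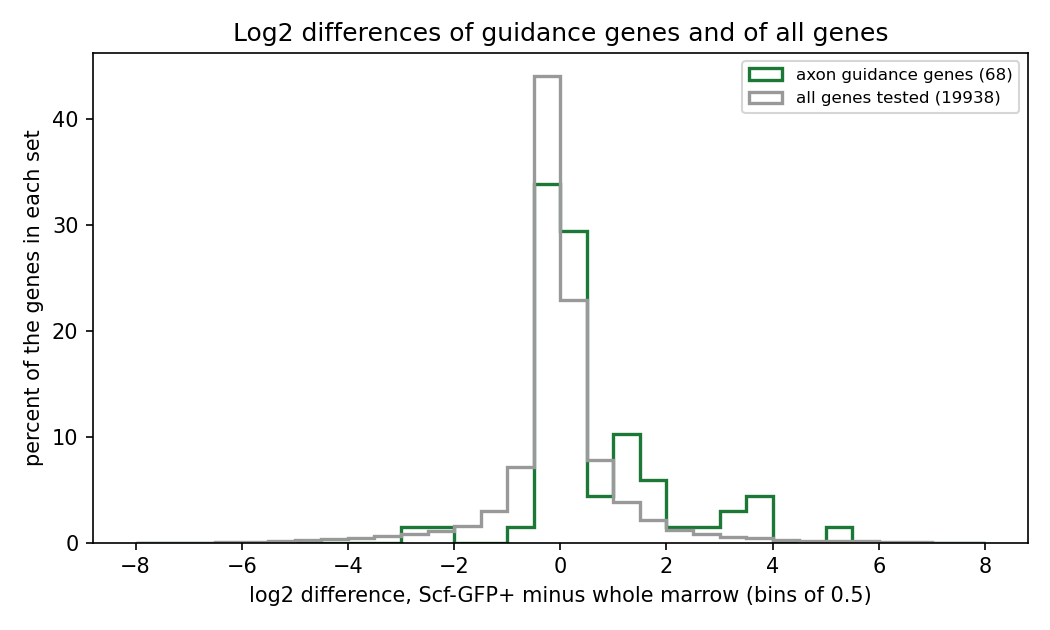
Share of genes (percent of each set) by log2 difference, in bins of 0.5, for the 68 guidance genes and all 19938 genes tested. Both sets peak next to 0, and the guidance genes reach further right in larger shares, with 5 genes from 3.17 for Slit3 to 3.64 for Efna5 and Sema6d alone at 5.42.

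The regions before the start of the 4 genes with the largest positive differences and of Sema4a, the gene with the largest negative one, are shown because these genes move together or against each other between the groups. Each line gives the 250 bases before a start site, 5′ to 3′ on the gene's strand, from RefSeq (GRCm38.p6), with matches to the GC box GGGCGGG, read on both strands, in capitals. They lie at chr2:124089719-124089968 on the plus strand (Sema6d), chr17:62881318-62881567 on the minus strand (Efna5), chr9:59036442-59036691 on the minus strand (Neo1), chr1:194619579-194619828 on the plus strand (Plxna2) and chr3:88455762-88456011 on the minus strand (Sema4a). Sema6d has 2 start sites in the RefSeq table and Sema4a has 4. The first with a match is shown for each.
Sema6d: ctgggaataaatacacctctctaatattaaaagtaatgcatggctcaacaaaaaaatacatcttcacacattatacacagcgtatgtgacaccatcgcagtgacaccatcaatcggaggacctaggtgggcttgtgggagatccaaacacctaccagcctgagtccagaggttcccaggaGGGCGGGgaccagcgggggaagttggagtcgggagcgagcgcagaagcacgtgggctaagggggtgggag
Efna5: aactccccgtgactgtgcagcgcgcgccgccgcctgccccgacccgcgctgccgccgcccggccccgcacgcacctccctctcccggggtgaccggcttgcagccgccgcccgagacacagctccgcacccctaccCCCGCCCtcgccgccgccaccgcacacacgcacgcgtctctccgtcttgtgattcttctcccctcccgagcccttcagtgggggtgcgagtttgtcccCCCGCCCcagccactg
Neo1: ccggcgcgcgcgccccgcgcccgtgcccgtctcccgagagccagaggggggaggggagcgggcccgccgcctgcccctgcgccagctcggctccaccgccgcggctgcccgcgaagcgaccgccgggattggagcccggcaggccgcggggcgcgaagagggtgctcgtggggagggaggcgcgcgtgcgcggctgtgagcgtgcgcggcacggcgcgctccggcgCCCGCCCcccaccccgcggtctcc
Plxna2: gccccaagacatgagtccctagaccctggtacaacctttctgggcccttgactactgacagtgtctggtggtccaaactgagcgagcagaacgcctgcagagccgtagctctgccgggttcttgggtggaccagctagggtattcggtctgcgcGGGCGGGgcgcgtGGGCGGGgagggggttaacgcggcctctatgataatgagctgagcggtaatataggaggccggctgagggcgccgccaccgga
Sema4a: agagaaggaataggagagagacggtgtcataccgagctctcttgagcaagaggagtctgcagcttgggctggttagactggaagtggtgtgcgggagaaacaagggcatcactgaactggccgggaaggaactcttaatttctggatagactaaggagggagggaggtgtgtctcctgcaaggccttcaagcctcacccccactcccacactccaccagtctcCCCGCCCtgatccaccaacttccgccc

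A GC box lay in the 250 bases of 15 of the 18 genes called higher that had a promoter in the table (83.3%). It also lay in those of both genes called lower and of 21 of the 38 genes not called (55.3%). Among all 27025 genes with a RefSeq promoter, 6958 had one (25.7%). In this paragraph all genes means these 27025, a different set from the 19938 genes tested on the arrays. The windows also differed in base composition, with a median G and C content of 66.7% for the genes called higher, 63.2% for those not called and 52.4% for all genes. The core of the early B cell factor motif, CCCNNGGG, was present in 5 of the 18 genes called higher (27.8%), in 9 of the 38 not called (23.7%) and in 13.4% of all genes; it can share letters with a GC box, but none of the windows shown holds it. The forkhead core TGTTTAC was found in none of these 58 genes and in 3.54% of all genes, and TATAAA in 2 of the 18 (11.1%), in none of the 38 and in 14.3% of all genes. These are matches of letters on either strand, and genes with several start sites had more sequence searched. Promoters of Dcc, Efnb3, Ntn1, Plxna1, Plxna4, Sema3b, Sema3f, Sema6a, Slit1 and Unc5d were not used here.

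Scf-GFP+ cells had 4 of 20 semaphorins called higher (20%, where 9.01% of all genes tested were) and 2 lower (10%, near the 7.89% of all genes tested). Sema6d, a transmembrane ligand of plexin A receptors, measured 11.11, 10.96 and 11.08 in Scf-GFP+ cells and 5.67, 5.67 and 5.56 in whole marrow. It was the guidance gene with the largest difference, 42.8-fold higher in measured signal (5.42 ± 0.10 SE, limma adjusted p = 2.01e-06), with no overlap of the groups. The other class 6 genes stayed close to 0: Sema6a differed by 0.35 ± 0.10 (adjusted p = 0.0489), below 2-fold, Sema6c by 0.30 and Sema6b by 0.00. Sema5a, a transmembrane semaphorin with thrombospondin repeats, measured 9.10, 8.70 and 9.59 in Scf-GFP+ cells, against 5.90, 5.72 and 5.72 in whole marrow. It was 10.2-fold higher (3.35 ± 0.23, adjusted p = 8.44e-05), while its relative Sema5b differed by -0.06 ± 0.10 with overlapping groups.

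Class 4 semaphorins, transmembrane ligands of plexin B and D receptors that are also known from lymphocytes and myeloid cells, split in direction. Sema4a, studied for its part in T cell responses, measured 6.74, 6.17 and 6.33 in Scf-GFP+ cells and 9.65, 8.85 and 9.36 in whole marrow. It fell by 2.88 ± 0.24 (adjusted p = 2.25e-04), with every Scf-GFP+ array below every whole marrow array. The Scf-GFP+ array with the highest Sema4a value was replicate 1, which also had the highest neutrophil markers; without it the difference was -3.04 (adjusted p = 6.00e-04). Sema4d, a leukocyte semaphorin that binds plexin B1 and is known to restrain osteoblasts, measured 6.31, 6.35 and 6.18 in Scf-GFP+ cells and 8.13, 8.34 and 8.69 in whole marrow (-2.11 ± 0.16, adjusted p = 1.43e-04). A second probe set named Sema4d showed little of this, at 6.84, 6.79 and 6.98 in Scf-GFP+ cells and 6.80, 7.13 and 7.55 in whole marrow (difference -0.29), and the mean of both probe sets differed by -1.20 (adjusted p = 0.00267). The size of the Sema4d difference therefore depends on the probe set. Sema4c, a ligand of plexin B2, went the other way, with 7.81, 8.37 and 8.22 in Scf-GFP+ cells and 6.42, 6.46 and 6.61 in whole marrow (1.64 ± 0.17, adjusted p = 5.47e-04). Sema4b differed by -0.48 ± 0.11 (adjusted p = 0.0182) without reaching 2-fold, and Sema4f (-0.31) and Sema4g (0.50) did not pass the test.

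Sema7a, which is held to the membrane by a lipid anchor and binds integrins and plexin C1, was 2.25-fold higher in Scf-GFP+ cells. It measured 9.41, 9.38 and 9.14 there and 8.19, 7.89 and 8.35 in whole marrow (1.17 ± 0.15, adjusted p = 0.00184). The 2 groups did not overlap. None of the 7 class 3 semaphorins, the secreted ones, was called, where 16.9% of all genes tested were called in either direction. Their differences ran from -0.31 (Sema3c) to 0.25 (Sema3b), and the 95% intervals of all 7 stayed within 2-fold in either direction. On all 6 arrays, 4 of these 7 lay below the median of the array (6.56 to 6.63).

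Plexins, the semaphorin receptors, were called higher in Scf-GFP+ cells for 5 of 9 genes (55.6%, where 9.01% of all genes tested were). None was called lower, where 7.89% of all genes tested were. Plxna2 measured 9.50, 9.75 and 10.55 in Scf-GFP+ cells and 6.70, 6.24 and 6.35 in whole marrow. That is 11.3-fold higher (3.50 ± 0.28, adjusted p = 1.91e-04). Scf-GFP+ replicate 3 was the highest array, and without it the difference was 3.20. Plxnb1, the receptor of Sema4d, measured 9.23, 9.20 and 9.12 in Scf-GFP+ cells and 7.14, 7.26 and 7.24 in whole marrow (1.97 ± 0.10, adjusted p = 2.38e-05). Its spread was among the smallest of the plexins, with groups far apart. Plxna1, a receptor of Sema6d, measured 9.21, 9.44 and 9.55 in Scf-GFP+ cells and 7.97, 7.57 and 7.65 in whole marrow (1.67 ± 0.15, adjusted p = 3.31e-04).

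Plxnd1, known from the endothelium, differed by 1.39 ± 0.20 (adjusted p = 0.00276). Plxnb2, the receptor of Sema4c, measured 8.07, 8.43 and 8.52 in Scf-GFP+ cells and 6.63, 6.69 and 7.67 in whole marrow (1.34 ± 0.30, adjusted p = 0.0161). Whole marrow replicate 3 stood nearest to the Scf-GFP+ arrays. The call was lost when Scf-GFP+ replicate 2 (adjusted p = 0.0512) or 3 (adjusted p = 0.0502) was left out, and likewise for whole marrow replicates 1 (adjusted p = 0.0543) and 2 (adjusted p = 0.0547). Plxnc1, the receptor of Sema7a, measured 6.43, 6.57 and 7.14 in Scf-GFP+ cells and 7.60, 8.17 and 7.33 in whole marrow. It lay just short of the 2-fold limit (-0.99 ± 0.27, adjusted p = 0.0372), and was called lower without Scf-GFP+ replicate 3 (-1.20) or whole marrow replicate 3 (-1.17) or after quantile normalization (-1.02). It missed the p threshold when any of the other 4 arrays was left out (adjusted p = 0.0832 to 0.109), with a replicate block (adjusted p = 0.0755) and with a term for Xist (-0.56, adjusted p = 0.348). Plxna3, Plxna4 and Plxnb3 lay between -0.05 and 0.28 and did not pass.

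Some of these semaphorins and plexins are known partners, and their calls can be set side by side, although bulk RNA does not show whether ligand and receptor came from the same cells. Sema6d and Plxna1 were both called higher in Scf-GFP+ cells, as were Sema4c and Plxnb2. Sema4d was called lower and its receptor Plxnb1 higher, while Sema7a was called higher and Plxnc1 was below 2-fold in the other direction. RNA levels say nothing of protein or of binding.

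**Figure D3:**
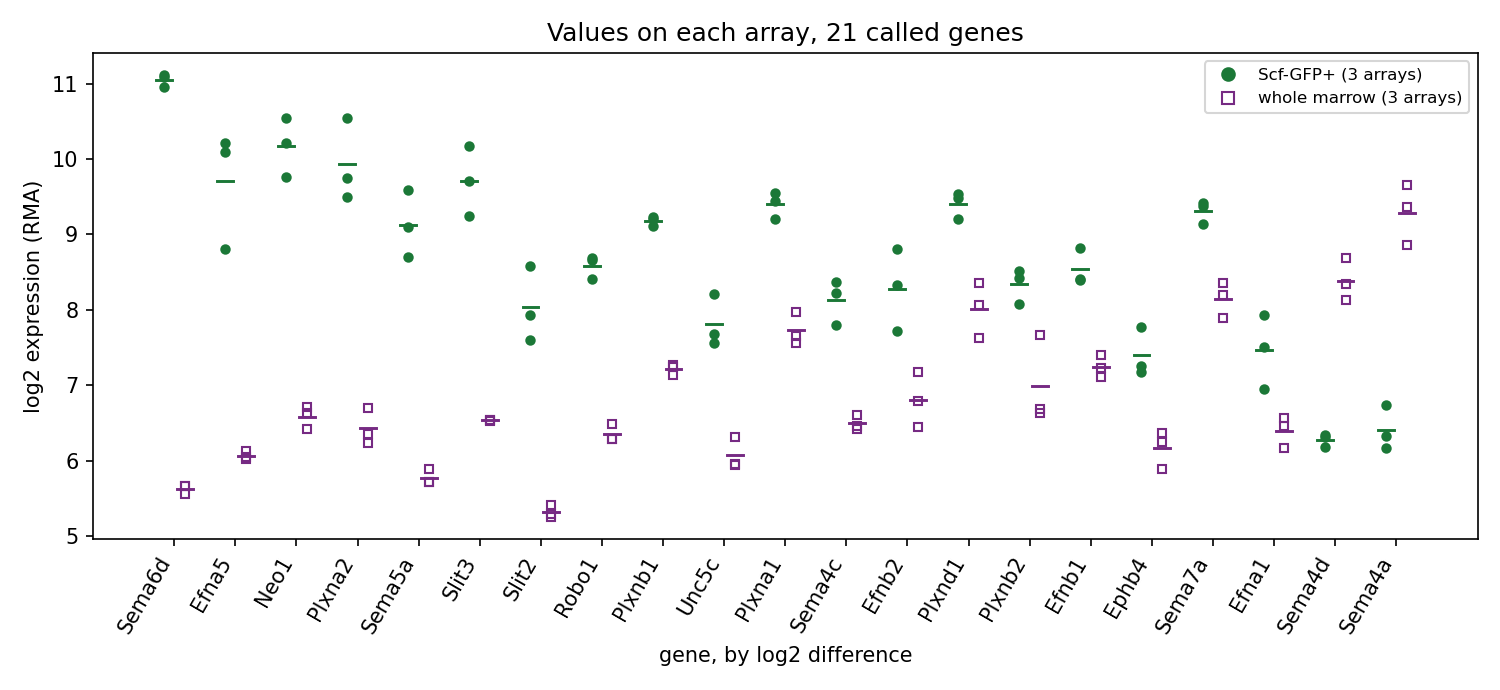
Log2 expression on each array for the 21 called genes, ordered by log2 difference, with group means as bars. Scf-GFP+ arrays lie above all whole marrow arrays for the 19 genes on the left and below them for Sema4d and Sema4a.

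Slit2 and Slit3 were called higher in Scf-GFP+ cells together with their receptor Robo1. Slit3 measured 9.71, 9.24 and 10.17 in Scf-GFP+ cells and 6.54, 6.55 and 6.52 in whole marrow, 9.01-fold higher (3.17 ± 0.23, adjusted p = 1.07e-04). Slit2 measured 8.58, 7.60 and 7.93 in Scf-GFP+ cells and 5.26, 5.42 and 5.30 in whole marrow, 6.54-fold higher (2.71 ± 0.24, adjusted p = 3.13e-04). In whole marrow Slit2 lay near the lower quartile of the arrays (5.19 to 5.31) and Slit3 just under their median, so the spread there is that of a low signal. Slit1, best known from the nervous system, differed by -0.22 ± 0.11 and did not pass (adjusted p = 0.223).

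Robo1 measured 8.68, 8.41 and 8.66 in Scf-GFP+ cells and 6.48, 6.28 and 6.29 in whole marrow (2.24 ± 0.12, adjusted p = 3.55e-05). Robo2 measured 6.89, 6.83 and 6.16 in Scf-GFP+ cells and 5.67, 5.85 and 5.53 in whole marrow (0.94 ± 0.22, adjusted p = 0.0190). Every Scf-GFP+ array was above every whole marrow array for both, but Robo2 stayed under 2-fold. It was called higher without Scf-GFP+ replicate 3 (1.17) or whole marrow replicate 2 (1.02). It missed the p threshold when any of the other 4 arrays was left out (adjusted p = 0.0586 to 0.0685) and with a term for Xist (0.47, adjusted p = 0.150). Robo3 (-0.29 ± 0.14) and Robo4, an endothelial receptor (-0.14 ± 0.16), did not pass the test.

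Netrin receptors were called higher in Scf-GFP+ cells for 2 of 6 genes (33.3%, where 9.01% of all genes tested were). None of the 5 netrin genes was called, where 16.9% of all genes tested were called in either direction. With so few genes, the difference between receptors and netrins was not tested. Neo1, neogenin, which also binds repulsive guidance molecules and acts as a coreceptor of bone morphogenetic proteins, measured 9.77, 10.22 and 10.54 in Scf-GFP+ cells and 6.63, 6.42 and 6.71 in whole marrow. It was 12.0-fold higher (3.59 ± 0.21, adjusted p = 4.27e-05). Unc5c, a receptor for repulsion by netrin-1, measured 7.56, 7.69 and 8.21 in Scf-GFP+ cells and 6.31, 5.95 and 5.96 in whole marrow (1.74 ± 0.20, adjusted p = 9.95e-04). For both genes replicate 3 was the highest Scf-GFP+ array and the groups lay well apart. Unc5b, known from endothelial cells, differed by 0.45 ± 0.15 (adjusted p = 0.0772), and Dcc (-0.25), Unc5a (-0.17) and Unc5d (0.09) did not pass either. The netrins Ntn1, Ntn3, Ntn4, Ntn5 and Ntng1 differed by -0.17 to 0.01, with adjusted p of 0.307 or more and 95% intervals inside -0.45 to 0.36. Ntng2 shares its probe set with a second symbol and was not analysed here.

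Ephrin ligands were called higher in Scf-GFP+ cells for 4 of 8 genes (50%). Of the 13 Eph receptors 1 was (7.69%), a share near the 9.01% of all genes tested, and the difference between ligands and receptors was not tested. Efna5, an ephrin tied to the membrane by a lipid anchor, measured 8.81, 10.21 and 10.09 in Scf-GFP+ cells and 6.13, 6.03 and 6.05 in whole marrow. It was 12.4-fold higher (3.64 ± 0.36, adjusted p = 4.90e-04). Scf-GFP+ replicate 1 was the lowest of its group, and without it the difference was 4.08 (adjusted p = 2.46e-05). That array also had the neutrophil transcripts, while its stromal list mean was 11.48, beside 11.53 and 11.46 on Scf-GFP+ replicates 2 and 3. Whether the neutrophil transcripts bear on the Efna5 value was not tested. Efna1, first described as a gene induced by tumour necrosis factor in endothelial cells, measured 7.94, 6.96 and 7.51 in Scf-GFP+ cells and 6.46, 6.16 and 6.56 in whole marrow (1.07 ± 0.26, adjusted p = 0.0219). This call is close to its limits: it was lost without Scf-GFP+ replicate 1 (0.84, adjusted p = 0.0433) or 3 (adjusted p = 0.0595), and without whole marrow replicate 1 (adjusted p = 0.0597) or 2 (0.96, adjusted p = 0.0717). Efna2, Efna3 and Efna4 differed by 0.10 to 0.14 with overlapping groups.

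Efnb1, a transmembrane ephrin of craniofacial and skeletal development, measured 8.40, 8.41 and 8.82 in Scf-GFP+ cells and 7.40, 7.11 and 7.23 in whole marrow (1.30 ± 0.16, adjusted p = 0.00116). Efnb2, which marks arterial endothelium and is also made by osteoclasts and mural cells, measured 8.81, 8.33 and 7.72 in Scf-GFP+ cells and 6.45, 7.18 and 6.79 in whole marrow (1.48 ± 0.31, adjusted p = 0.0131). Efnb3 differed by 0.01 ± 0.12. Of the Eph receptors, Ephb4, the partner of ephrin-B2 known from veins and osteoblasts, measured 7.25, 7.77 and 7.18 in Scf-GFP+ cells and 6.37, 5.89 and 6.26 in whole marrow (1.23 ± 0.20, adjusted p = 0.00495). Efnb2 and Ephb4 were thus both called higher in the Scf-GFP+ samples.

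The other 12 Eph receptors were not called. Epha2 came nearest, with 7.62, 7.13 and 7.83 in Scf-GFP+ cells and 6.84, 6.61 and 7.23 in whole marrow (0.64 ± 0.23, adjusted p = 0.0928), and its groups overlapped. Epha3 differed by 0.46 ± 0.26, with 5.38 on Scf-GFP+ replicate 1 and 4.30 and 4.86 on the other Scf-GFP+ arrays, against 4.34 to 4.43 in whole marrow. The rest, Epha1, Epha4 to Epha8, Epha10, Ephb1, Ephb3 and Ephb6, lay between -0.17 and 0.19. Of the 12, 9 lay below the median of the array on all 6 arrays.

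Some endothelial transcripts also differed between the groups. Scf-GFP+ cells had 4 of 12 endothelial markers called higher, namely Ramp2, Emcn, Clec14a and Cdh5 (33.3%, where 9.01% of all genes tested were). Pecam1 was called lower (8.33%, near the 7.89% of all genes tested), while 7 markers were not called, among them Kdr, Tek and Tie1. The mean of the 12 markers was 7.36, 7.24 and 6.80 on Scf-GFP+ replicates 1, 2 and 3 and 6.28 to 6.37 in whole marrow. Efnb2 was likewise highest on replicate 1 and lowest on replicate 3, an order that Efna1, Ephb4, Plxnd1 and Unc5b did not follow. Single markers differed in order, and all 4 called higher were highest on replicate 2. Emcn (7.50, 7.68 and 7.02 on Scf-GFP+ replicates 1, 2 and 3), Clec14a and Cdh5 were lowest on replicate 3. Ephb4 ran in the order of these markers, at 7.25, 7.77 and 7.18. Tek, Egfl7, Esam, Kdr, Tie1 and Pecam1, none of them called higher, ran in the order of Efnb2. With 3 arrays only a few orders exist, so genes can share an order without any link. Summed on the linear scale, which weights bright probe sets most, the list reached 2062 to 2975 in Scf-GFP+ cells and 1389 to 1447 in whole marrow, with Ramp2 the brightest riser. Leaving out Ramp2 was a choice made after its values were seen. The sums were then 1704, 1584 and 1088 on Scf-GFP+ replicates 1, 2 and 3 and 1333 to 1389 in whole marrow. They include Pecam1, the marker called lower, at 6.82 on Scf-GFP+ replicate 3 and 9.09 to 9.36 in whole marrow. Sums without Pecam1 were not computed, so the low sum of replicate 3 does not describe the other markers. The part of endothelial transcripts in the values of Efnb2, Efna1, Ephb4, Plxnd1 and Unc5b was not tested. In a model with a term for Xist, which sets Scf-GFP+ replicate 3 by itself against whole marrow, 14 of the 19 genes stayed called higher. The calls of Efnb2 (0.91, adjusted p = 0.137), Ephb4 (1.01, adjusted p = 0.0672), Plxnb2 (1.52, adjusted p = 0.0741), Efna1 (1.11, adjusted p = 0.126) and Sema7a (1.00, under 2-fold) were lost. Of 8 Schwann and neuronal markers, S100b alone was called higher (12.5%, near the 9.01% of all genes tested). Its difference was large, at 4.28 ± 0.28 (limma adjusted p = 7.25e-05). S100b measured 9.84, 10.99 and 10.27 in Scf-GFP+ cells and 6.15, 6.03 and 6.07 in whole marrow. The list mean was 6.38 to 6.73 in Scf-GFP+ cells and 6.12 to 6.23 in whole marrow. Sox10, another Schwann cell marker, differed by -0.13 and the neuronal gene Rbfox3 by -0.06. The source of the S100b signal was not tested.

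**Figure D4:**
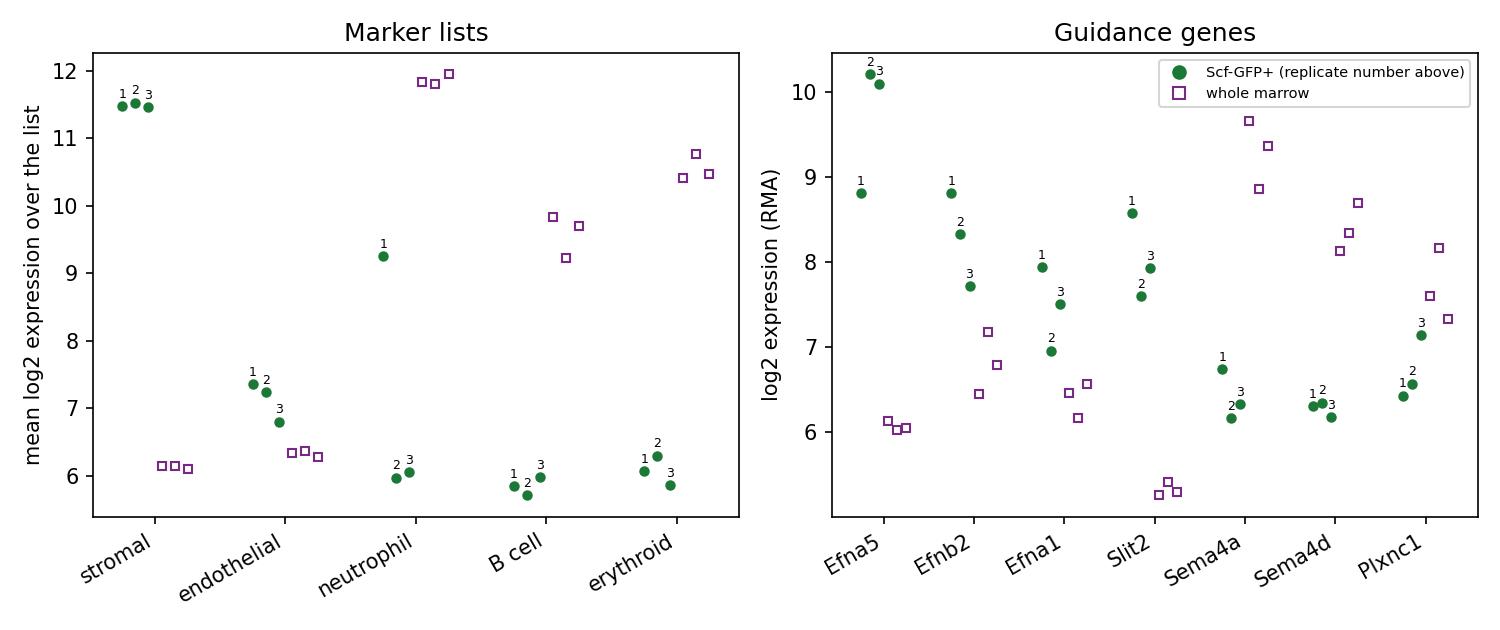
Left, mean log2 expression over 5 marker lists on each array. Right, log2 expression of 7 guidance genes on each array, with the replicate number above the Scf-GFP+ points. Scf-GFP+ replicate 1 stands apart for neutrophil markers (9.26). It is the lowest Scf-GFP+ array for Efna5 (8.81) and the highest for Efnb2, Efna1 and Slit2. The order of the Scf-GFP+ arrays for Efnb2 is that of the mean of the endothelial list, though not of its markers called higher.

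Genes that lie side by side in the genome did not share their calls in 2 places. Efna1, called higher, is followed in the RefSeq gene order by Efna3 and Efna4, which differed by 0.10 and 0.14 and were not called. Robo1 (2.24) and Robo2 (0.94) are neighbours as well, with the call on Robo1. The neighbours Sema3d and Sema3a (0.03 and 0.07) and Robo4 and Robo3 (-0.14 and -0.29) were not called.

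Partners outside these families were counted from lists of coreceptors and of intracellular effectors. Of 17 coreceptors and further guidance ligands, Scf-GFP+ cells had 6 called higher and 1 lower, beside 9.01% and 7.89% of all genes tested. Their median difference was -0.01. The neuropilins Nrp1 and Nrp2, coreceptors of class 3 semaphorins, were higher by 3.77 ± 0.17 and 3.89 ± 0.17, though no class 3 semaphorin was called. Nrp1 measured 10.40, 10.17 and 9.99 in Scf-GFP+ cells and 6.70, 6.29 and 6.27 in whole marrow. Both integrin chains of the Sema7a receptor were higher, Itga1 by 3.96 ± 0.20 and Itgb1 by 1.80 ± 0.12. Flrt2, a ligand of Unc5 receptors, was higher by 2.89 ± 0.25, and Chl1, an adhesion molecule that works with neuropilin-1, by 2.87 ± 0.16. Cd72, the lymphocyte receptor of Sema4d and a B cell marker, fell by 5.60 ± 0.19, beside the other 8 B cell markers measured, which were all called lower. For these 7 genes the adjusted p ran from 5.86e-06 to 2.76e-04. Rgma and Rgmb, repulsive ligands of neogenin, differed by 0.27 ± 0.17 and 0.19 ± 0.21 and did not pass.

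Of 39 intracellular effectors measured, 10 rose (25.6%) and 5 fell (12.8%) by the same rule, beside 9.01% and 7.89% of all genes tested. The median of the list was 0.27. Over both lists of partners, 6 genes were called lower here, and 3 in the model with a term for Xist. The largest rises were Enah, an actin regulator, at 3.78 ± 0.23, Dpysl3, a collapsin response mediator, at 3.38 ± 0.21, the small GTPase Rras, on which plexins act, at 2.46 ± 0.21, and Kalrn, an exchange factor, at 2.12 ± 0.15 (adjusted p from 5.27e-05 to 2.65e-04). Rnd1, a GTPase that binds plexins, was called lower, with a difference of -2.11 ± 0.51 (adjusted p = 0.0230), and so were the exchange factors Vav3 and Tiam1, at -1.55 ± 0.30 and -1.47 ± 0.16, and the kinase Fes, at -1.48 ± 0.15. Tiam1, Vav3 and Fes are also known from blood cells. In the same comparison 10 of 12 neutrophil, 9 of 9 B cell and 8 of 8 erythroid markers were called lower. Other blood lists fell less uniformly, with 2 of 7 T and NK cell and 1 of 7 megakaryocyte markers called lower. Of 10 monocyte and macrophage markers 5 were called lower and 1 higher, Vcam1, which is also on the stromal list. The part of blood cells in these differences was not tested.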

How the data were processed

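The authors deposited 1 table of log2 values, 1 column for each of the 6 arrays. RMA, affy and limma appear in the submitters' processing notes, with no version or role, and the annotation build is not given in the sources used here. RNA was amplified from 5000 cells per array, per the labels' protocols, which limits how exactly differences are sized. The log2 values were used as deposited, with no further normalization.

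Of 28940 probe sets, 21789 carried a single gene symbol (1621 several, 5530 none). Symbols were updated through RefSeq (GRCm38.p6). For the 999 genes with several probe sets the one with the highest mean over all arrays was used, which left 19938 genes; 6 of the 68 guidance genes had 2 probe sets. The fit used limma 3.58.1 in R 4.3.3, with lmFit and eBayes and no covariate, and was tested on simulated data. Every adjusted p in the text is limma's, adjusted over all genes tested. Promoter windows were searched in Python 3.11.15.

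The members and lists were chosen with earlier results of these data known. All guidance genes were tested; array values are given for up to 3 called genes per role and direction with the largest differences and for partners near the limits, and of each list up to 4 called genes per direction with the largest differences are named, while Chl1, Itgb1, Rgma and Rgmb were added after their values were seen. Replicate numbers were not used to pair the groups. Deviations of same-numbered arrays from their group means correlated at -0.06, -0.02 and 0.07, which cannot settle whether those samples were handled together.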

Additional observations from a re-analysis of the deposited data

How the results depend on the processing

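Besides the comparison as reported, 13 other fits were run: median centring, quantile normalization, removal of the dimmest 30% of genes, the mean of a gene's probe sets, a mean-variance trend, a replicate block, a term for sex-linked transcripts and 6 that each left out 1 array. Of the 19 guidance genes called higher, 14 kept the call in all 13 fits, as did both called lower, and no called gene changed sign. Of the genes that did not, Plxnb2 and Efna1 lost the call when single arrays were left out, 5 lost it with the sex-linked term, and Plxnc1 and Robo2 gained one in some fits. Leaving out 1 array gave 17 to 19 genes called higher and 2 to 3 called lower. The replicate block gave 19 higher and 2 lower, and changed no guidance gene's call. With a 4-fold threshold 8 were called higher, and with no fold threshold 4 were called lower, since these rules are stricter and looser by construction. Among pathway partners, 9 were called higher and 2 lower at 4-fold, against 16 and 6 at 2-fold, and 3 lower with the sex-linked term, where the cause was not tested. The dimmest 30% of genes held 14 guidance genes that were not called; at such signals a difference may be understated.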
